A study of Mus musculus with 18 samples.

Results

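The constitutive proteasome genes were taken from the count table by name: 47 of its 16314 gene symbols begin with Psma, Psmb, Psmc, Psmd, Psme, Psmf or Psmg followed by a digit, once the inducible catalytic subunits Psmb8, Psmb9 and Psmb10 are set aside. Of these, 15 encode subunits of the core particle (Psma1 to Psma8 and Psmb1 to Psmb7) and 24 carry regulatory names (Psmc1 to Psmc6, Psmd1 to Psmd14 and Psme1 to Psme4). Another 5 encode the inhibitor Psmf1 and the core assembly chaperones Psmg1 to Psmg4. The last 3 match by name only: Psmc3ip encodes a meiotic recombination cofactor, Psme3ip1 a partner of Psme3, and Psme2b an annotated copy of Psme2. All 47 passed the filter on low counts, among 12021 genes tested.

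The proteasome degrades proteins that carry ubiquitin chains. Its core particle is a barrel of alpha rings, which gate the entrance, and beta rings, in which Psmb5, Psmb6 and Psmb7 hold the chymotrypsin-like, caspase-like and trypsin-like active sites. A regulatory particle on the barrel's end recognises the chains, removes them through the lid enzyme Psmd14 and unfolds the substrate with the Psmc ATPases of its base, while Psme1 and Psme2 form another cap that is known for its induction by inflammatory signals in macrophages.

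Bulk RNA-seq was carried out on bone marrow-derived macrophages (BMDMs), primary cells grown from mouse bone marrow with the growth factor M-CSF (50 ng/ml for 7 days). The study asked what loss of Prep, which encodes the serine protease prolyl endopeptidase, does to quiescent and polarized macrophages. Prep-/- BMDMs were compared with Prep+/- BMDMs from heterozygous littermates on a C57BL6/J background, so every control library also carried 1 disrupted Prep allele and no group was wild type. Each genotype was left unstimulated (M0), treated with LPS at 50 ng/ml for 24 h (M1), or treated with IL-4 and IL-13 at 20 ng/ml each for 24 h (M2), giving 6 groups of 3 libraries. The study describes the libraries of a group as biological replicates, and the labels do not tie them to single mice. P-values measure the spread between these libraries.

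The 18 libraries held 19068237 to 22598279 counts each. Levels are given as normalized counts, in which each library's counts are scaled to a common size with TMM factors. For Prep itself they were 31.3 to 42.5 in the knockout M0 libraries and 638 to 900.0 in the heterozygous ones. The summed level of 8 macrophage markers was 10027 to 48180.0 CPM (counts scaled to a fixed library total) over the libraries, against at most 135 CPM for 8 granulocyte precursor markers. Of 6 T cell markers, 2 were in the table, and their summed level was 7.84 to 29.6 CPM in Prep-/- M0 and 0.750 to 0.962 CPM in Prep+/- M0. Within M0, the macrophage sum was 30385 to 48180.0 CPM in Prep-/- and 19002 to 22408 CPM in Prep+/-. The part of these marker levels in the results was not tested, and in bulk RNA fewer cells of a type and less RNA per cell cannot be told apart. Prep-/- M0 replicate 3 stood above its group for 32 of the 39 core and regulatory genes, with a median deviation of 0.27 on the log2 scale, and Prep-/- M2 replicate 3 did so for 36 of 39, with a median deviation of 0.16.

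**Figure D1:**
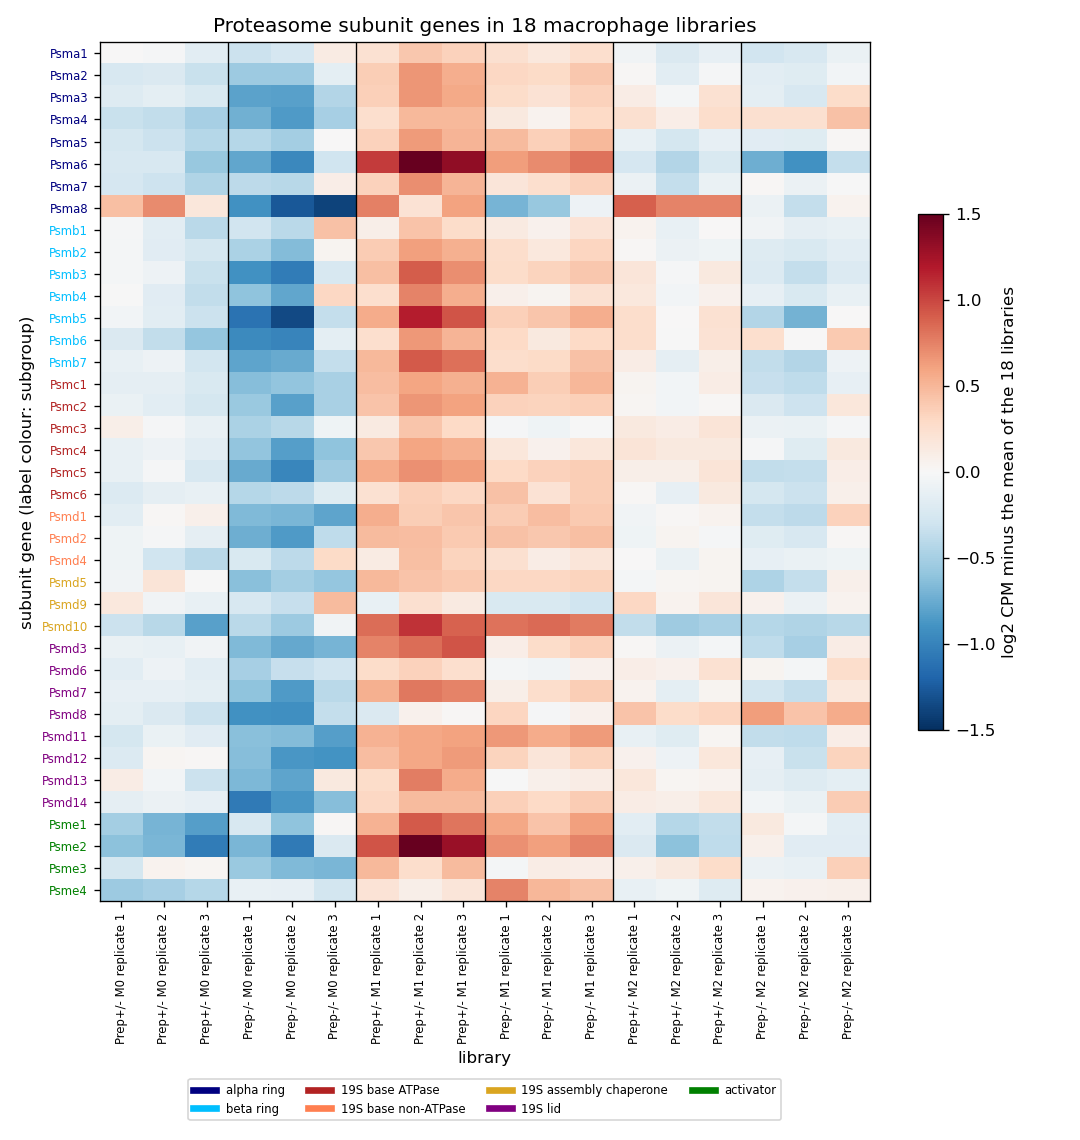
Log2 CPM of each of the 39 core and regulatory genes (rows, label colour by subgroup) in each of the 18 libraries (columns), minus that gene's mean over the 18. The 6 M1 columns are mostly red, the Prep-/- M0 columns mostly blue, and Prep-/- M0 replicate 3 and Prep-/- M2 replicate 3 are redder than their groups.

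Sequence upstream of 3 genes is shown because Psmb5 is the main catalytic subunit and Psmd12 and Psmd14 were the lid genes with the largest fall in Prep-/- M0. These genes were picked for display after their values and motif matches had been seen. The sequences come from RefSeq's promoter table (built on GRCm38.p6), were found at a single place each in GRCm39, and are cut to the bases before the GENCODE gene start. Capitals mark matches to the motifs searched on both strands, of which TGACNNNGC is the core of the antioxidant response element bound by Nfe2l1 and Nfe2l2, CCAAT is the CCAAT box and GGGCGG is the GC box.
Psmb5, chr14:54855482-54855702, minus strand: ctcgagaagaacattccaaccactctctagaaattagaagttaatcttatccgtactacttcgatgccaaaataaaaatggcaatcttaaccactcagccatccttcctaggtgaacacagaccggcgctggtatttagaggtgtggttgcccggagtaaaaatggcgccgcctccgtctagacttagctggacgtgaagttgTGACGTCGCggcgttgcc
Psmd12, chr11:107370104-107370245, plus strand: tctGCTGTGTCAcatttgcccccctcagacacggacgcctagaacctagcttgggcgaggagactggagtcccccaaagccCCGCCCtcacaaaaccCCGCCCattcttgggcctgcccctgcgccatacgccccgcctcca
Psmd14, chr2:61541788-61542025, plus strand: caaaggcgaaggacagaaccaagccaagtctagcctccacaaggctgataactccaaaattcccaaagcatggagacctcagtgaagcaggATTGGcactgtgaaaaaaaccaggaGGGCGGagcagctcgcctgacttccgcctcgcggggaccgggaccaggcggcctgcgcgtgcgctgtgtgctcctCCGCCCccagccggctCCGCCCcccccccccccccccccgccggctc
Over the 250 bases before the start, 32 of the 39 core and regulatory genes had an entry. TGACNNNGC matched in 5 of them (Psmb5, Psmb6, Psmc6, Psmd9 and Psmd12), 15.6% against 10.1% of all 27025 promoters. CCAAT matched in 37.5% against 34.5%, and GGGCGG in 62.5% against 32.9%. The other motifs searched were the core of the interferon-stimulated response element (9.38% against 3.04%), GAGGAAGT (a PU.1 site, 6.25% against 2.44%) and TTCNNNGAA (interferon gamma activated site, 0% against 7.18%). These letters can overlap one another, and a match describes the sequence only.

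In unstimulated macrophages, most proteasome subunit transcripts were lower without Prep. Of the 39 core and regulatory genes, 22 fell and 2 rose in Prep-/- M0 against Prep+/- M0 (edgeR's quasi-likelihood test, adjusted p under 0.05), while 24.2% of all genes tested fell and 24.3% rose. The median log2 fold change was -0.26 for core genes and -0.46 for regulatory genes, beside 0.02 for all genes tested. The core median rested on single libraries: it was -0.10 without Prep-/- M0 replicate 2, -0.12 without Prep-/- M0 replicate 1, -0.16 without Prep+/- M0 replicate 1 and -0.52 without Prep-/- M0 replicate 3. The regulatory median was -0.54 without Prep-/- M0 replicate 3, close to the core median there, and -0.37 without Prep-/- M0 replicate 2. Over the 39 genes, the M0 fold change fell with coding length (Spearman's rho -0.42, genes sharing the same libraries), beside -0.07 over 11598 genes. Core genes have a median coding length of 744 bases and regulatory genes 1192.5. The correlation is therefore mixed with the split between core and regulatory genes. After a correction for coding length the medians were -0.30 for core and -0.45 for regulatory genes. In the core particle 6 of 15 genes fell, and none was called higher by edgeR, at an unadjusted p under 0.05 (0 genes) or by DESeq2 (0 genes). In the lid 7 of 8 genes fell, and in the ATPase ring 5 of 6.

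Psmd14, the lid deubiquitinase (GRCm39 chromosome 2, 61542026 to 61631607, plus strand), had normalized counts of 2041, 2103 and 2054 in Prep+/- M0, against 1072, 1218 and 1431 in Prep-/- M0. Its groups did not overlap, and its log2 fold change was -0.74 ± 0.12 (standard error, n = 3 per group; adjusted p = 0.00013).
Psmd12, a lid scaffold subunit, had 1636, 1913 and 1903 in Prep+/- M0, against 1208, 1022 and 1009 in Prep-/- M0. Every Prep-/- library was below every Prep+/- library, with a log2 fold change of -0.75 ± 0.14 (adjusted p = 0.000391). Both calls were kept under each of the 16 alternatives run.

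Among the catalytic subunits, Psmb5 (chromosome 14, 54850776 to 54855481, minus strand) had 3785, 3476 and 3103 in Prep+/- M0, against 1798, 1517 and 3025 in Prep-/- M0. Prep-/- replicate 3 lay close to the lowest Prep+/- library while the other 2 were far below, and the log2 fold change was -0.71 ± 0.22 (adjusted p = 0.0157). Psmb7 fell by 0.47 ± 0.14 (adjusted p = 0.0113), and Psmb6 had a log2 fold change of -0.26 ± 0.19 that did not pass (adjusted p = 0.275). The call of Psmb5 was lost in 5 of 16 alternatives, with adjusted p from 0.000398 to 0.087, and that of Psmb7 in 3 of 16 (0.000551 to 0.106). Both were lost without Prep-/- M0 replicate 1 or 2, and Psmb5 also without Prep+/- M0 replicate 1. Psma8, an alpha subunit enriched in testis, was far less abundant: 36.7, 44.3 and 29.7 against 13.0, 9.74 and 8.79, a log2 fold change of -1.80 ± 0.28 (adjusted p = 7.97e-05).

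The rest of the regulatory particle is described by members picked after their values were seen. Psmd1, the base scaffold, had 2890.1, 3282 and 3418 in Prep+/- M0, against 2046, 2000.2 and 1869 in Prep-/- M0, and fell by 0.70 ± 0.15 (adjusted p = 0.00114). Psmd2, the other large base scaffold, had normalized counts of 6723, 6949 and 6392, against 4224, 3883 and 5367, and fell by 0.57 ± 0.11 (adjusted p = 0.000495). In both, every Prep-/- library lay below every Prep+/- library. The ubiquitin receptor Psmd4 had a log2 fold change of 0.17 ± 0.14 (adjusted p = 0.343). Among the ATPases, Psmc5 fell most, by 0.63 ± 0.13 (adjusted p = 0.000743), and Psmc6, the 1 that did not pass, had -0.18 ± 0.11 (adjusted p = 0.192). Of the 3 base assembly chaperones with a Psmd name, Psmd5 fell by 0.63 ± 0.12 (adjusted p = 0.000376), while Psmd9 and Psmd10 had 0.01 and 0.19 and did not pass.

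Outside the 39, 2 of the 4 core assembly chaperones fell in M0 (all genes: 24.2% lower). Psmg2, which pairs with Psmg1 to build the alpha ring, had 627, 609 and 477 in Prep+/- M0, against 227, 179.8 and 422 in Prep-/- M0, and fell by 1.05 ± 0.23 (adjusted p = 0.00137). Psmg1 fell by 0.56 ± 0.17 (adjusted p = 0.0107), and by 0.41 without Prep-/- M0 replicate 2 (adjusted p = 0.058). The inhibitor Psmf1 had 0.09 ± 0.09 (adjusted p = 0.432). Psmc3ip, which shares only its name with the ATPases, had 213, 203 and 188, against 29.1, 34.5 and 40.0, a log2 fold change of -2.54 ± 0.32 (adjusted p = 1.32e-05). It was the largest fall among the 47 symbols in M0.

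The activators did not move one way. Psme4, a nuclear activator, had 1600.4, 1664 and 1742 in Prep+/- M0, against 2171, 2153 and 1936 in Prep-/- M0, and rose by 0.32 ± 0.09 (adjusted p = 0.00834). Psme1 (chromosome 14, 55815190 to 55822034, plus strand) had 3139.9, 2758 and 2518 against 3758, 2937 and 4505, groups that overlap, and rose by 0.41 ± 0.15 (adjusted p = 0.0307). Its partner Psme2 had a log2 fold change of 0.15 ± 0.19 (adjusted p = 0.523). Psme3, the nuclear relative of both, fell by 0.58 ± 0.13 (adjusted p = 0.00136). Psme2 and Psme2b share 99.4% of 795 aligned bases, so the split of reads between these 2 genes is uncertain. The higher call of Psme1 was lost in 7 of 16 alternatives (adjusted p from 0.00663 to 0.192) and that of Psme4 in 2 of 16 (0.000471 to 0.177), both with scaling by total counts, under which the median of all genes was -0.13. The call of Psme1 was also lost without Prep+/- M0 replicates 2 or 3 or Prep-/- M0 replicates 1 or 3, with log2 fold changes of 0.38, 0.32, 0.41 and 0.24.

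The number of lower calls depended on single libraries: it was 14 without Prep-/- M0 replicate 2 and 30 without Prep-/- M0 replicate 3. With the study's further criterion of a fold change over 1.5, 8 of the 39 genes were lower, a share near the 17.2% of all genes.

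**Figure D2:**
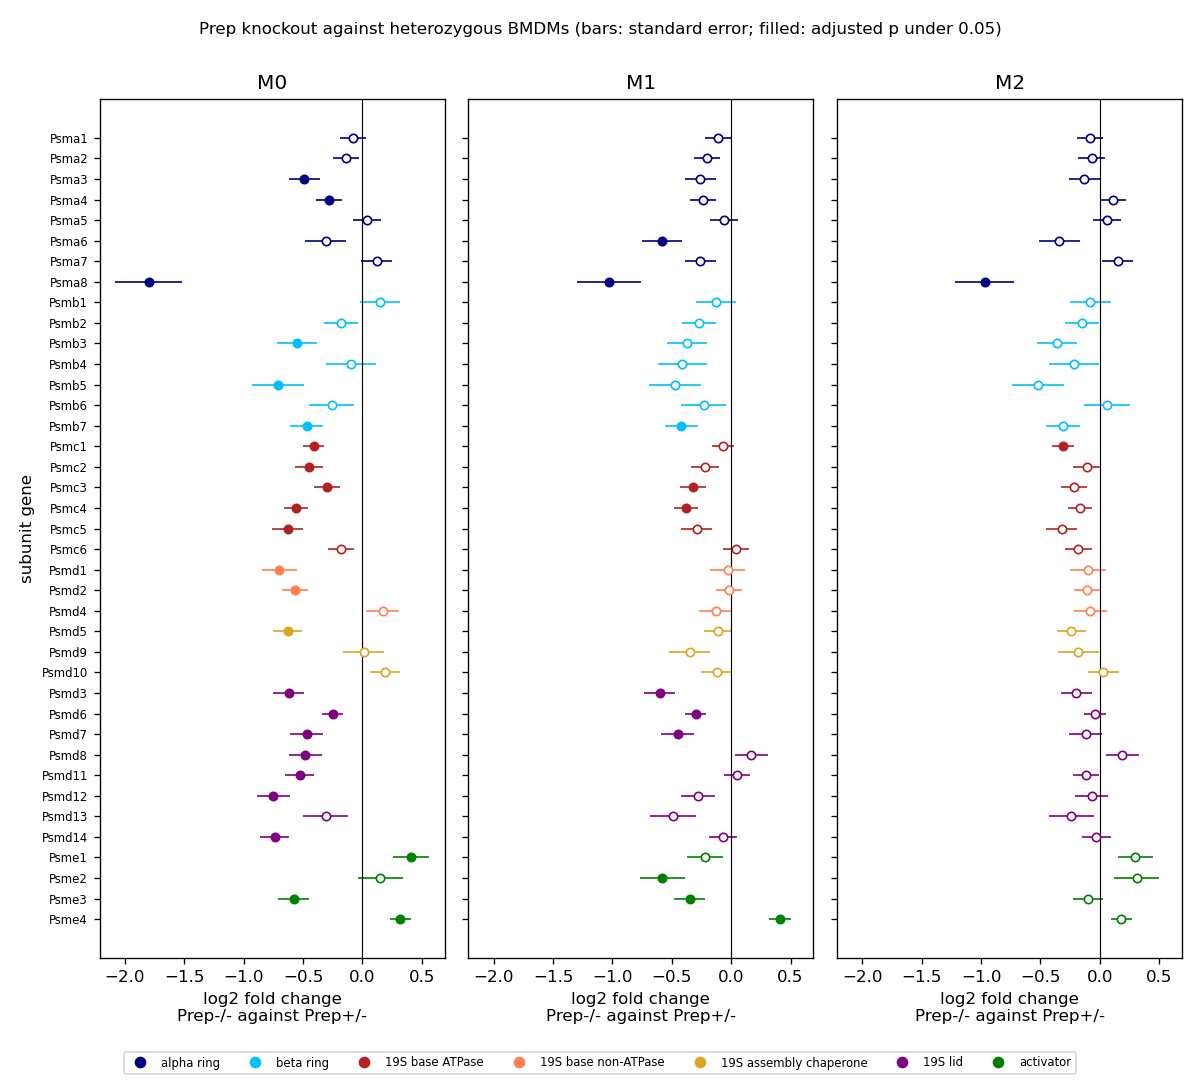
Log2 fold change of Prep-/- against Prep+/- (horizontal axis) for each of the 39 core and regulatory genes (vertical axis) in M0, M1 and M2, with standard errors as bars, filled points for adjusted p under 0.05 and colours for subgroups. In M0 22 genes are filled left of 0 and 2 right of it; in M1 10 and 1; in M2 2 left of 0.

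After LPS, the core genes had the same median difference between genotypes as in M0 in the main fit, and the regulatory genes a smaller one. In M1 10 genes were lower and 1 higher in Prep-/- in the fit over all libraries (all genes: 16.6% lower, 19.7% higher), with medians of -0.26 for core, -0.22 for regulatory and 0.04 for all genes. The match of the core medians depended on the setting. With a correction for coding length the core median was -0.30 in M0 and -0.18 in M1. With scaling by total counts it was -0.42 and -0.20, beside -0.13 and 0.09 for all genes. The largest M1 fall was that of Psma8 (log2 fold change -1.03, adjusted p = 0.0076), at low counts. It had 45.6, 30.9 and 41.0 in Prep+/- M1 and 15.4, 17.1 and 24.8 in Prep-/- M1. Psmd3, a lid scaffold subunit, had 4459.9, 4746 and 5105 in Prep+/- M1 and 2846, 3222 and 3399 in Prep-/- M1. The groups did not overlap, and Psmd3 fell by 0.60 ± 0.13 (adjusted p = 0.00225). Psma6, an alpha subunit, fell by 0.58 ± 0.17 (adjusted p = 0.0162) from 9828, 13500.4 and 12014 to 7387, 7797 and 8407. Psme2 fell by 0.58 ± 0.19 (adjusted p = 0.0235) from 7580.2, 11241 and 9684 to 6368, 6042 and 6608. The calls of Psma6 and Psme2 were lost when either Prep+/- M1 replicate 2 or Prep-/- M1 replicate 1 was left out (adjusted p up to 0.085 and 0.128). Psme2 also lost its call without Prep+/- M1 replicate 3 and, in another fit, Prep-/- M1 replicate 2. Psme4 was again higher in every Prep-/- library, at 3936, 3318 and 3174 against 2701, 2488 and 2668 (log2 fold change 0.41 ± 0.09, adjusted p = 0.00312). After a correction for coding length Psme4 had 0.17 (adjusted p = 0.2) and was no longer called.
For Psmb5 in M1 the log2 fold change was -0.47 ± 0.22 (adjusted p = 0.106), and for Psmd14 it was -0.07 ± 0.12 (adjusted p = 0.657). The 4 core assembly chaperones all fell in M1, by a median of 0.66; Psmg1 and Psmg2 were the 2 that also fell in M0. All 4 M1 calls were lost without Prep+/- M1 replicate 2 or Prep-/- M1 replicate 1, with adjusted p of 0.0511 and 0.066 for Psmg1, 0.0801 and 0.111 for Psmg2, 0.102 and 0.0782 for Psmg3 and 0.118 and 0.107 for Psmg4. The lower count was 3 without Prep-/- M1 replicate 1, 4 without Prep+/- M1 replicate 2, 5 without Prep+/- M1 replicate 3 and 6 without Prep-/- M1 replicate 2, and 19 when only the M1 libraries were fitted, where the same kind of fit to the M0 libraries gave 16 lower. Which state had more lower genes therefore depended on the libraries that entered the fit.

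In M2 2 genes were lower in Prep-/- and none higher (all genes: 13.1% lower, 11.6% higher; 0 members higher at an unadjusted p under 0.05 and 0 by DESeq2). These were Psma8, which fell by 0.97 ± 0.25 (adjusted p = 0.0108), and the ATPase Psmc1. Psmc1 had 4404, 4174 and 4641 in Prep+/- M2 and 3375, 3294 and 3960.4 in Prep-/- M2, and fell by 0.31 ± 0.09 (adjusted p = 0.0197). The call of Psmc1 was lost in 5 of 16 alternatives, with adjusted p from 0.000576 to 0.0974. These were the fit of only the M2 libraries and those without Prep+/- replicate 1 or 3 or Prep-/- replicate 1 or 2. Psmb5 had a log2 fold change of -0.52 ± 0.22 (adjusted p = 0.0995). Without Prep-/- M2 replicate 3 the lower count was 11, and without any 1 of 4 other M2 libraries (Prep+/- replicates 1 and 3, Prep-/- replicates 1 and 2) it was 1. Replicate numbers paired the M2 libraries by their correlations, and 6 genes were lower and 2 higher once the replicate number was a block and M0 and M1 were left out of the fit.

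Whether the knockout effect itself differed between states was tested as a difference of differences. Against M0, the effect in M1 was higher for 6 regulatory genes and lower for 1 (all genes: 13.7% and 10.9%), and 0 core genes were called by edgeR in either direction, with 0 at an unadjusted p under 0.05 and 0 by DESeq2. Psmd14 had a difference of 0.66 ± 0.17 (adjusted p = 0.0102), Psmd11, a lid scaffold subunit, 0.57 ± 0.16 (adjusted p = 0.0172) and Psmd8, also in the lid, 0.65 ± 0.20 (adjusted p = 0.0264). The 1 in the other direction was Psme1, at -0.63 ± 0.21 (adjusted p = 0.0378). The same test of M2 against M0 gave 3 higher genes (all genes: 5.16% higher, 4.48% lower), Psmd8, Psmd12 and Psmd14, at 0.67, 0.68 and 0.71. In both tests the call of Psmd8 was lost without most single libraries (in 10 of 22 alternatives for M1 and 14 of 22 for M2), and the M2 call of Psmd12 was lost in 9 of 22. Both tests use the same M0 libraries. Over the 39 genes the M1 difference rose with coding length (Spearman's rho 0.55, genes sharing the same libraries), beside 0.26 over 11598 genes. This correlation, too, is mixed with the split between core and regulatory genes. After a correction for coding length 3 genes were higher and 2 lower in M1. Single libraries moved these counts: the M1 count of 6 was 3 without Prep+/- M0 replicate 2 and 2 without Prep+/- M1 replicate 3, and the M1 lower call of Psme1 did not hold when Prep-/- M1 replicates 1, 2 or 3, Prep+/- M0 replicates 2 or 3, Prep-/- M0 replicates 1 or 3, or Prep+/- M1 replicates 2 or 3 were left out. The M2 count of 3 was 7 without Prep-/- M2 replicate 2, 5 without Prep-/- M0 replicate 3, and 1 without Prep+/- M0 replicates 2 or 3, Prep-/- M0 replicate 2, Prep+/- M2 replicates 1 or 2 or Prep-/- M2 replicate 3.

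LPS raised the subunits as a group in both genotypes. In Prep+/- 36 of 39 were higher in M1 than in M0, and in Prep-/- 34 of 39 (all genes: 24.8% and 29.3%). Of these, 32 genes were called in both. With nearly all 39 called in each genotype, an overlap of about this size follows from the list sizes alone. No gene was called lower in either genotype by edgeR (0 at an unadjusted p under 0.05, 0 by DESeq2), while 27.3% of all genes were in Prep+/- and 27.8% in Prep-/-. The median log2 fold change was 0.81 for core and 0.61 for regulatory genes in Prep+/-, and 0.85 and 0.87 in Prep-/-, against -0.03 and 0.00 for all genes.
Psme2 had the largest change of the 39 in Prep+/-, 2.03 ± 0.19 (adjusted p = 2.24e-07), from 2584, 2459 and 1914 in M0 to 7580.2, 11241 and 9684 in M1. In Prep-/- it rose by 1.30 ± 0.19 (adjusted p = 2.35e-05), from 2461, 1887 and 3394 to 6368, 6042 and 6608. The M0 and M1 libraries of Psme2 did not overlap in either genotype. Psma6 rose by 1.65 ± 0.18 (adjusted p = 8.75e-07) in Prep+/- and by 1.38 ± 0.18 (adjusted p = 5.87e-06) in Prep-/-.
Psmd11 rose by 1.32 ± 0.12 in Prep-/- (adjusted p = 1.02e-07), from 1092, 1075 and 958 to 2659.7, 2500.3 and 2636, and by 0.74 ± 0.11 in Prep+/- (adjusted p = 4.15e-05). The catalytic genes Psmb5, Psmb6 and Psmb7 rose by 1.08, 0.86 and 0.91 in Prep+/- and by 1.32, 0.89 and 0.96 in Prep-/-. Psmd10, a base assembly chaperone named after its values were seen, rose by 1.45 ± 0.13 in Prep+/- (adjusted p = 1.62e-07), from 804, 751 and 568 to 1794, 2132 and 1853, and by 1.13 ± 0.13 in Prep-/- (adjusted p = 2.31e-06). Psme1 rose by 1.43 ± 0.15 in Prep+/- (adjusted p = 7.24e-07) and by 0.79 ± 0.15 in Prep-/- (adjusted p = 0.000259). Psme4 rose by 0.65 and 0.74 and Psme3 by 0.47 and 0.69, in Prep+/- and Prep-/-. Of the 4 core assembly chaperones, edgeR and DESeq2 each called 0 higher in either genotype; at an unadjusted p under 0.05 edgeR gave 1 in Prep+/- (Psmg3, 0.45 ± 0.20, adjusted p = 0.0627) and 0 in Prep-/-. Psmg4 was lower in Prep-/- (-0.79 ± 0.22, adjusted p = 0.00632), although its M0 and M1 libraries overlapped. The 3 subunit genes not called in Prep+/- were Psma8, Psmd8 and Psmd9. Psmd8 did not pass in Prep+/- (0.18 ± 0.14, adjusted p = 0.297) and rose by 0.84 ± 0.14 in Prep-/- (adjusted p = 0.000109). The inducible subunits Psmb8, Psmb9 and Psmb10 rose by 1.71, 1.28 and 1.81 in Prep+/-, and in Prep-/- by 1.26 and 0.75 for the first 2, while Psmb10 had 0.44 (adjusted p = 0.104).
Scaling by total counts moved the median of all genes to -0.50 in Prep+/- and -0.26 in Prep-/-. The Prep+/- calls were then 18 higher and 2 lower, and the subunit median was 0.23.

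**Figure D3:**
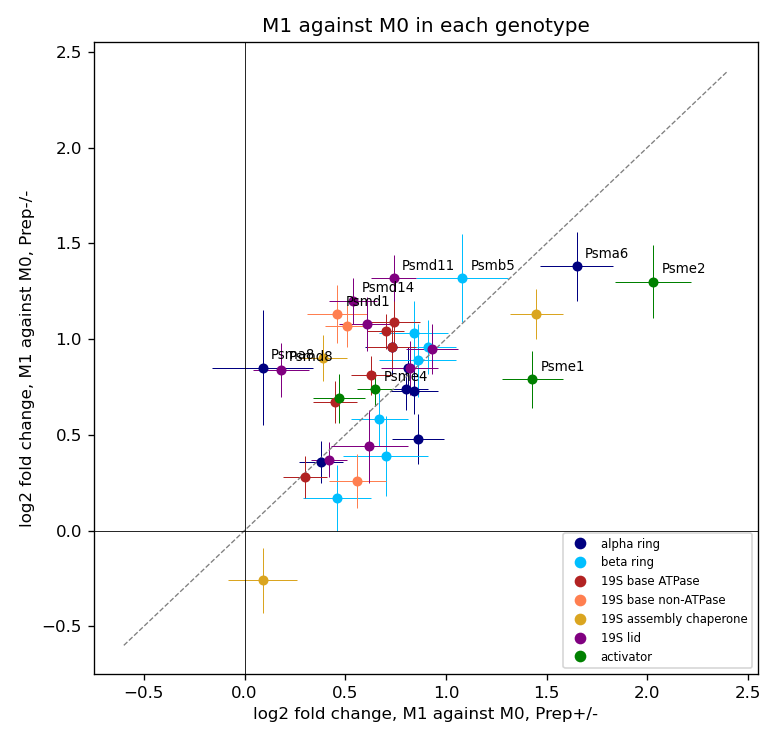
Log2 fold change of M1 against M0 in Prep+/- (horizontal axis) and in Prep-/- (vertical axis) for the 39 core and regulatory genes, with standard errors as bars, colours for subgroups and a dashed line of equal change. All 39 lie right of 0 and 38 above it, with Psme1 and Psme2 below the line and Psmd11 and Psmd14 above it.

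IL-4 and IL-13 moved fewer subunits than LPS did, and also fewer of all genes. In Prep+/- 3 of 39 were higher in M2 than in M0 and in Prep-/- 21 of 39 (all genes: 9.35% and 22.1%), with medians of 0.18 and 0.44. The Prep+/- count thus lay near the share of all genes. The Prep-/- median was 0.27 without Prep-/- M2 replicate 3. No gene was called lower in either by edgeR (0 at an unadjusted p under 0.05, 0 by DESeq2; all genes: 9.06% and 21.7%). The 3 in Prep+/- were the alpha subunit Psma4 (0.60 ± 0.11, adjusted p = 0.000868), Psmd8 (0.57 ± 0.14, adjusted p = 0.00938) and Psme4 (0.37 ± 0.09, adjusted p = 0.00874). The call of Psmd8 was lost without Prep+/- M2 replicate 1 (adjusted p = 0.067). Psmd8 had 8069, 7727 and 7189 in Prep+/- M0, against 12039.6, 10876 and 11197 in Prep+/- M2. In Prep-/- it went from 4762, 4735 and 6992 to 13844, 12001 and 13148, without overlap, a rise of 1.24 ± 0.14 (adjusted p = 4e-06). Psma8 rose by 1.18 ± 0.29 in Prep-/- (adjusted p = 0.00348) and Psma4 by 0.99 ± 0.11 (adjusted p = 2.56e-06). Of the lid, 7 of 8 genes rose in Prep-/-. Fitting only the libraries compared gave 12 higher in Prep+/- and 9 in Prep-/-, and the Prep-/- count ranged from 16 to 31 with 1 library left out.

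**Figure D4:**
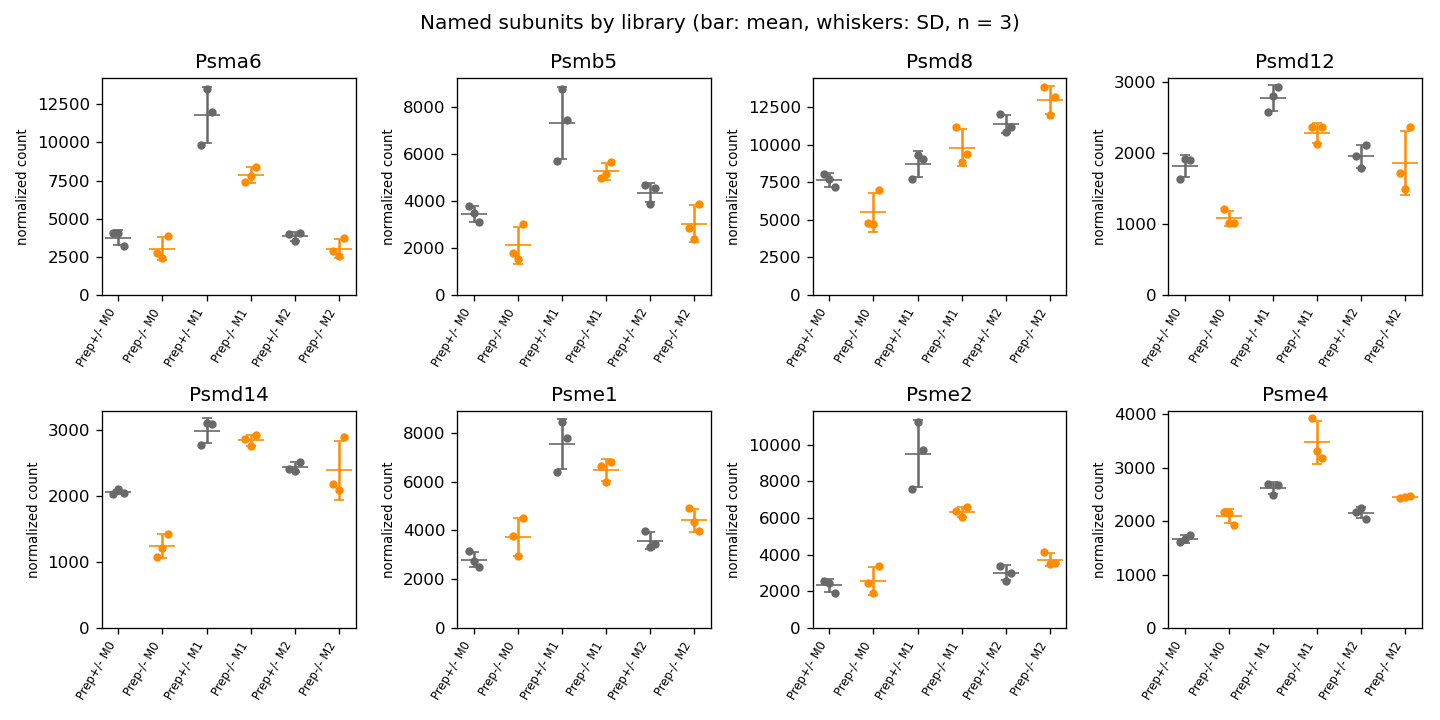
Normalized counts (vertical axis, from 0) of 8 named genes in each library of the 6 groups (horizontal axis), points for libraries, with mean and SD (n = 3), grey for Prep+/- and orange for Prep-/-. Psmb5 and Psmd8 in Prep-/- M0 show 1 library well above the other 2, and Psme2 is highest in Prep+/- M1.

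Genes that work with the proteasome but lie outside these names were read as 4 lists, beside 24.2% of all genes lower and 24.3% higher in M0. Of 14 tested proteasome factors, 8 fell in Prep-/- M0, among them the proteasome-bound deubiquitinases Uchl5 (-1.05 ± 0.14, adjusted p = 1.76e-05) and Usp14 (-0.92 ± 0.16, adjusted p = 0.000195). Of 7 genes for the p97 segregase, which extracts ubiquitylated proteins, 4 fell in M0, with Faf1 at -0.75 ± 0.07 (adjusted p = 1.61e-06). In the pathway of Nfe2l1, a transcription factor known to control proteasome genes, 3 of 7 genes rose and 2 fell in M0; Ngly1, which processes it, rose by 0.90 ± 0.10 (adjusted p = 2.86e-06). Nfe2l1 itself was 1 of the 2 that fell in M0, by 0.33 ± 0.13 (adjusted p = 0.0473), a call lost in 8 of 16 alternatives and without any single M0 library other than Prep-/- replicate 2. In M1 it rose by 0.86 ± 0.13 (adjusted p = 0.000242). In the pathway as a whole, 2 of 7 genes rose and 2 fell in M1, and 2 rose and 0 fell in M2. Of 6 ubiquitin and E1 genes, 2 rose and 1 fell in M0. In M1 1 of the 14 proteasome factors rose and 2 fell, and in M2 1 rose and 2 fell; of all genes, 19.7% rose and 16.6% fell in M1, and 11.6% and 13.1% in M2.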

How the data were processed

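The authors trimmed reads with Trimmomatic 0.36, aligned them to GRCm39 with HISAT2 2.2.1.0 and counted them with StringTie2, and deposited 1 table of raw counts per gene symbol for the 18 libraries. The annotation release, the strand setting and the handling of multi-mapped reads are not given in the sources used here, so genes with near-identical copies may share reads. The members and the gene lists were chosen with earlier results of these data known. Library totals were 19068237 to 22598279 counts, and intervals for single counts were not needed because every comparison rests on 3 libraries a group.

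Counts were fitted with edgeR 4.0.16 (R 4.3.3; quasi-likelihood F test) over all 18 libraries, with 1 coefficient per group, TMM scaling and filterByExpr. P-values were adjusted by Benjamini-Hochberg over 12021 genes, and a gene was called at an adjusted p under 0.05. Standard errors are the size of the log2 fold change divided by the root of F. DESeq2 1.42.0, 3 other scalings, 2 other filters, fits of only the libraries compared, a replicate block and leaving out each library were run as alternatives. A coding length correction, the block with only the libraries compared and a fold change over 1.5 were added after seeing the data. The fit was tested on simulated data: it missed the recovery set for it over all changed genes, because genes of low counts were often not called, and met it for genes of higher counts, to which the bar was restricted after this was seen. Members named are Psmb5, Psmb6, Psmb7, Psme1 to Psme4 and the largest calls in each comparison (3 per direction between genotypes, 2 between states), and list genes past a fold of 1.5; others were named after their values were seen. One gene of the lists that met this rule is not reported here. Gene positions and lengths came from GENCODE vM39 (GRCm39), where all 47 symbols matched 1 gene each, and copies were found with blastn 2.17.0.

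Replicate numbers were taken to pair libraries where each of the 3 same-numbered correlations was over 0.1: this held for the genotypes in M2 (0.249, 0.255 and 0.462) and for M1 against M0 in Prep-/- (0.201, 0.169 and 0.259), from correlations only.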

Additional observations from a re-analysis of the deposited data

Results flagged for a closer look

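The knockout effect differed between states, by the test of the difference itself, for 12 pairs of gene and state. Over the 47 symbols the M1 test called 7 higher and 2 lower, beside 13.7% and 10.9% of all genes. The M2 test called 3 higher and 0 lower, beside 5.16% and 4.48%. The shares of the 47 thus lay near or below those of all genes. Against M0, the effect in M1 differed by 1.29 for Psmc3ip, 0.67 for Psmd1, 0.57 for Psmd11, 0.66 for Psmd14, 0.56 for Psmd2, 0.51 for Psmd5, 0.65 for Psmd8, -0.63 for Psme1 and -0.90 for Psmg4, all as log2 differences. In M2 against M0 it differed by 0.68 for Psmd12, 0.71 for Psmd14 and 0.67 for Psmd8. After the coding length correction the M1 calls of Psmd1, Psmd2, Psmd5 and Psmg4 were lost. Psmd14 had normalized counts of 1072, 1218 and 1431 in Prep-/- M0 against 2041, 2103 and 2054 in Prep+/- M0, and 2863, 2758 and 2925 against 2782, 3107 and 3099.7 in M1.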

How the results depend on the processing

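Counts are of the 39 core and regulatory genes, and of the called values of named genes 3 changed sign, each for M1 against M0 in Prep+/- under scaling by total counts: Psmd1 (from 0.46 to -0.00), Psmd5 (from 0.39 to -0.08) and Faf1 (from 0.18 to -0.28). DESeq2 gave 6 higher in M2 against M0 in Prep+/- (3 by edgeR), 2 lower for the M1 difference of the knockout effect (1) and 6 higher for its M2 difference (3). DESeq2-type size factors gave 2 lower for the M1 difference, as did a minimum of 1 CPM in every library. Scaling by total counts gave 0 higher for the knockout in M0 (2), 12 lower in M2 (2), 18 higher and 2 lower for M1 against M0 in Prep+/- (36 and 0), 1 lower in Prep-/- (0), 12 higher and 0 lower for the M1 difference (6 and 1) and 5 higher for the M2 difference. Upper quartile factors and no filter moved no count past 1.5 times. Fitting only the libraries compared gave 1 higher for the knockout in M0, 19 lower in M1 (10), 12 and 9 higher for M2 against M0 in Prep+/- and Prep-/- (3 and 21) and 0 for the M2 difference. With a fold change over 1.5 also required, the knockout counts were 0 higher and 8 lower in M0 (2 and 22), 0 higher and 2 lower in M1 (1 and 10) and 1 lower in M2; M2 against M0 gave 1 and 10 higher, and the M1 difference 3. The coding length correction gave 0 higher for the knockout in M1, 2 higher in M2, 3 higher and 2 lower for the M1 difference and 5 higher for the M2 difference. The cause of these moves was not tested, other than the higher bar set by the fold criterion.

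The replicate block over all 18 libraries moved no count past 1.5 times: it left 22 lower in M0 and 2 in M2. The replicate block with only the libraries compared gave 0 higher and 10 lower in M0, 20 lower in M1, 2 higher and 6 lower in M2, 17 and 10 higher for M2 against M0 in Prep+/- and Prep-/-, 0 lower for the M1 difference and 1 higher for the M2 difference.

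With 1 library left out, the knockout in M0 gave 1 to 2 higher and 14 to 30 lower, in M1 3 to 11 lower, and in M2 1 to 11 lower. M1 against M0 in Prep-/- gave 0 to 1 lower, and the differences gave 2 to 7 higher and 0 to 2 lower for M1 and 1 to 7 higher for M2. Levels per kilobase were not compared between genes here. Having 3 libraries a group limits what small changes can be called.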
